A study of Homo sapiens with 19 samples.

Results

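ALK, RET, NTRK2, NTRK3, NGFR, GFRA2 and GFRA3 encode receptors through which neuroblasts and sympathetic neurons read growth factors. The 7 genes were taken by name from a fixed list. All of them were found by gene ID among the 19942 protein-coding rows of the TPM (an mRNA's share of a library, per length) and eCLIP tables, and by transcript in the rRNA-depleted table. All libraries came from SH-SY5Y, an established human neuroblastoma cell line, so the values describe this line only. Poly-A RNA-seq was made from cells transfected with control siRNA (siCtrl), siG3BP1 or siG3BP2. RNA-seq was also made from cleared lysate (Total) and from stress granule (SG) cores, pulled down with an anti-G3BP1 antibody. Both came from cells treated with sodium arsenite (AS) for 1 h, for which the sources state different doses. The study's methods state poly-A selection for the knockdown libraries and name no RNA selection for Total and SG. rRNA-depleted RNA-seq was made from untreated cells and from cells given 500 µM AS for 1 h. Each of these 7 conditions had 1 library. eCLIP, which sequences RNA cross-linked to an immunoprecipitated protein, was made for either protein, G3BP1 or G3BP2, without AS and after AS, with 2 libraries in each of the 4 groups. The protocol labels name AS for 1 h for the siRNA libraries and for all eCLIP libraries, the untreated ones included. Which of them were treated was therefore taken from the sample titles and the study's text.

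On GRCh38 the genes differed widely in size. ALK (ENSG00000171094, chr2:29192774-29921586, minus strand) spans 729 kb. NTRK2 (ENSG00000148053, chr9:84668375-85095751, plus strand) spans 427 kb, and NTRK3 (ENSG00000140538, chr15:87859751-88256791, minus strand) spans 397 kb. GFRA2 (ENSG00000168546, chr8:21690398-21812357, minus strand) spans 122 kb, and RET (ENSG00000165731, chr10:43077064-43130351, plus strand) spans 53.3 kb. GFRA3 (ENSG00000146013, chr5:138252380-138274621, minus strand) and NGFR (ENSG00000064300, chr17:49495293-49515008, plus strand) are the short genes, at 22.2 kb and 19.7 kb. Introns are included in these spans. The longest annotated transcripts run from 1988 nt for GFRA3 to 20018 nt for NTRK3.

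ALK is a receptor tyrosine kinase of the sympathoadrenal lineage that is a known oncogene of neuroblastoma. RET is the signalling receptor of the GDNF family, whose ligands first bind a membrane-anchored GFRα co-receptor: GFRA2 prefers neurturin and GFRA3 prefers artemin. NTRK2 (TrkB, the BDNF receptor) and NTRK3 (TrkC, the NT-3 receptor) are kinases, while NGFR (p75) binds every neurotrophin and has no kinase domain. G3BP1 and G3BP2 are the RNA-binding proteins around which stress granules assemble.

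The transcripts were searched for CCAGGCTGG and CCAGCCTGG, words of 9 letters taken from the study's motif analysis of G3BP binding. Each word is the reverse complement of the other, so the search of a gene span covers both strands. The longest transcripts of ALK, NTRK3 and GFRA2 hold 1 match each and those of the other members hold none. Of the longest transcripts of all genes, 35.4% hold at least 1, and of all gene spans 87.4%. The matches in members other than GFRA2 that lie in the MANE Select transcript are shown because they are the places where the transcript carries these letters, with the word in capitals. In ALK-201 the word lies at chr2:29193231-29193239 in the coding part of exon 29, the last exon. In NTRK3-217 it lies at chr15:87873509-87873517 in the 3′UTR, in exon 20 of 20.
ALK-201: atagcatgaaCCAGCCTGGgccctgagct
NTRK3-217: tccagggcacCCAGGCTGGtctctctgcc
Over the whole gene span, introns included, ALK holds 156 matches, NTRK2 92, NTRK3 70, GFRA2 41, GFRA3 27, RET 14 and NGFR 4. Per 100 kb this is 121 in GFRA3 and between 17.6 and 33.6 in the other members, beside a median of 40.3 over all genes. GFRA3 therefore lies at the 93.5th percentile and the other members lie below the median. A match describes the letters only.

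The libraries differed in ways that bear on what follows. The protein-coding TPM summed to between 623955 and 735927 per library, and TPM gives no depth. In siG3BP1 cells G3BP1 stood at 6.0 TPM against 18.7 in siCtrl, and in siG3BP2 cells G3BP2 stood at 11.4 against 38.1. Of 10 sympathoadrenal markers, 9 were above 1 TPM in every library and TH was below 1 in all 5. Of 8 Schwann cell and mesenchymal markers, 3 to 4 were above 1 TPM, with a summed level of 25.9 to 42.4 outside SG and 94.8 in SG, and FOXD3 was at 0 and SOX10 at or near 0 in all 5 libraries. The 4 blood markers summed to between 0.553 and 3.33 TPM outside SG and to 28.9 in SG, nearly all of it CD68 at 28.7, while HBB was at 0 in all 5. The part of these markers in any difference below was not tested. The numbers behind the eCLIP values summed to between 4268911 and 26179736 per library, and the second library of each group was the smaller.

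The 7 genes covered a wide range of levels in the siCtrl cells. RET led at 88.3 TPM, the 93.3rd percentile of all genes, followed by NGFR at 28.3, GFRA2 at 16.9 and ALK at 13.6 TPM. GFRA3 stood at 3.92, NTRK3 at 1.42 and NTRK2 at 0.222 TPM, the 32.9th percentile. With 1 library per condition there is no spread by which neighbours in this order could be told apart. GFRA1, the co-receptor that prefers GDNF and is no member, stood at 0.0229 TPM, and GDNF itself was listed at 0 in all 5 libraries. The ligands with the highest siCtrl levels were MDK, a heparin-binding cytokine of neural crest and tumour cells, at 2816 TPM, PTN, its paralogue, at 49.2 and NRTN (neurturin) at 11.6 TPM.

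**Figure D1:**
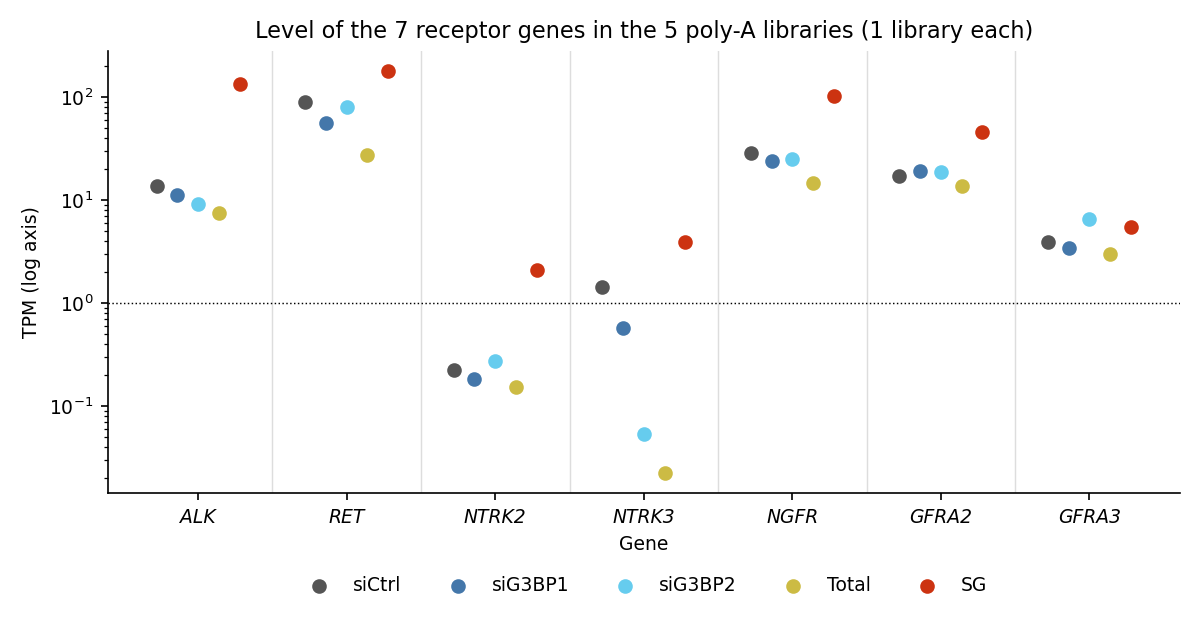
Level of each receptor gene in TPM (log axis) in the 5 TPM libraries, 1 point per library, with a dotted line at 1 TPM. SG is the highest library for 6 genes, while GFRA3 is highest in siG3BP2 at 6.56 TPM. NTRK3 runs from 0.0225 TPM in Total to 3.94 in SG.

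The first comparison asked which receptor mRNAs were more abundant in SG cores than in the lysate of the same AS-treated cells. A gene was called higher where the fold of TPM + 1 was above 2 with SG above 1 TPM, and lower where it was below 0.5 with Total above 1 TPM. ALK stood at 134 TPM in SG and 7.46 in Total, a ratio of 17.9 and a log2 fold of TPM + 1 of 3.99. Of all genes above 1 TPM in either library, 91.4% lay at or below ALK. RET stood at 178 TPM in SG and 27.2 in Total (log2 fold 2.67), and NGFR at 101 and 14.6 (log2 fold 2.72). These 3 were the members with the highest SG levels.

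NTRK3 and NTRK2 were low in both libraries. NTRK3 stood at 3.94 TPM in SG and 0.0225 in Total (log2 fold 2.27), and NTRK2 at 2.08 and 0.152 (log2 fold 1.42). GFRA2 stood at 45.4 TPM in SG and 13.6 in Total (log2 fold 1.67). GFRA3 stood at 5.49 and 2.96 TPM (log2 fold 0.71) and was the member that met neither rule, with the smallest log2 fold of the 7.

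In all, 6 of 7 members were called higher and 0 lower. The background of this rule is high: 62.9% of the 13560 genes tested were called higher and 9.45% lower, and the median log2 fold was 1.51. Against this the members' median was 2.27. GFRA2 lay at the 53.6th percentile, NTRK2 at the 47.7th and GFRA3 at the 31.1st, so these 3 were near or below the middle of all genes. When the SG library was rescaled so that the median ratio of genes above 1 TPM in both libraries was 1, 4 members stayed above a fold of 2. Their log2 folds were then 2.54 for ALK, 1.27 for NGFR, 1.24 for NTRK3 and 1.21 for RET. The rescaled values of NTRK2 and GFRA2 were 0.60 and 0.25, and that of GFRA3 was -0.41. TPM are shares of a library, so more RNA of a gene and less RNA of others cannot be told apart.

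**Figure D2:**
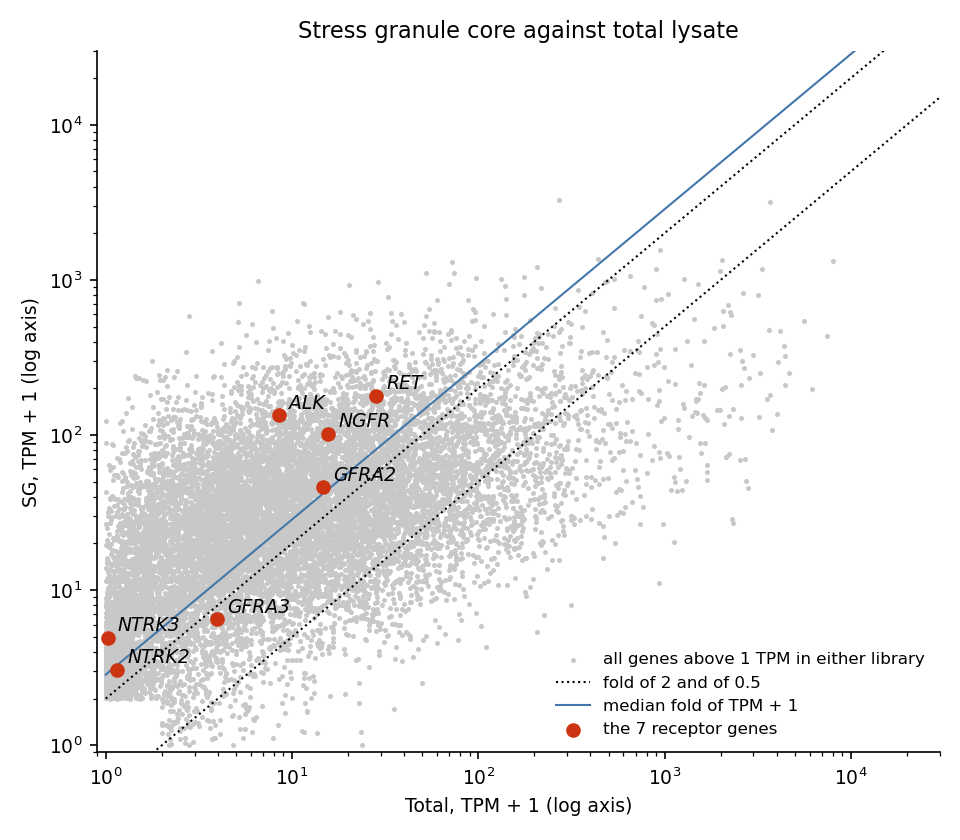
SG against Total, both as TPM + 1 on log axes, with 1 grey point for each of the 13560 genes above 1 TPM in either library and the 7 receptor genes in red. ALK, NGFR, RET and NTRK3 lie above the line of the median fold, GFRA2 and NTRK2 lie near it, and GFRA3 lies between the dotted lines for folds of 2 and 0.5.

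Genes that work with these receptors were described by lists. Among the other receptors and co-receptors, 6 of the 7 above 1 TPM were called higher and 0 lower, with a median log2 fold of 2.90. KIDINS220, a scaffold bound by Trk receptors and p75, stood at 50.3 TPM in SG and 1.54 in Total, SORCS1 at 65.1 and 3.87, and NCAM1, which also binds GDNF, at 35.5 and 3.35. SORT1 (sortilin, the partner of p75 for proneurotrophins) stood at 58.0 and 6.92 TPM, and LINGO1 at 8.31 and 2.32.

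Of 28 adaptors above 1 TPM, 24 were called higher and 1 lower (median log2 fold 3.24). GAB2, a docking protein of receptor tyrosine kinases, stood at 209 TPM in SG and 1.74 in Total. CBL, the ubiquitin ligase of activated receptors, stood at 154 and 1.99, IRS2 at 272 and 7.35, FRS2, which links Trk receptors to the RAS pathway, at 41.5 and 0.310, and SOS1 at 132 and 3.30. Of 15 downstream kinases and RAS proteins, 10 were called higher and 2 lower (median 1.98). BRAF stood at 46.1 TPM in SG and 1.59 in Total (log2 fold 4.18), and PIK3R1, the regulatory subunit of PI3-kinase, at 65.9 and 3.36 (log2 fold 3.94).

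Of 8 ligands above 1 TPM, 4 were called higher and 1 lower (median 0.55), the smallest median of the lists. MDK was lower, at 1172 TPM in SG against 3346 in Total. BDNF, PSPN, ARTN and NTF4 were higher, at 1.24 to 11.3 TPM in SG. Of 34 other receptor tyrosine kinases above 1 TPM, 31 were called higher and 0 lower, with a median of 2.50, beside the members' 2.27. LMTK2, IGF1R, PDGFRA, INSR and EGFR led that list, with log2 folds of 4.76 to 6.65, all above that of ALK. Read against the 62.9% background, the shares of the ligands and of the downstream kinases were near it, and those of the other 3 lists were above it. The receptor lists overlap, LTK standing in both.

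The knockdown libraries asked how the receptor mRNAs differed when G3BP1 or G3BP2 was reduced. The siCtrl library is shared by both comparisons. With siG3BP1, 0 of the 6 members above 1 TPM in either library met the rule, beside a background of 1.12% of 12280 genes higher and 1.98% lower. RET stood at 55.7 TPM against 88.3 in siCtrl, a log2 fold of -0.65 at the 4.97th percentile of all genes tested. NTRK3 stood at 0.577 against 1.42 TPM (log2 fold -0.62, 5.62nd percentile). In such bulk samples, fewer cells with a transcript and less of it per cell cannot be told apart. ALK (11.1 against 13.6 TPM), NGFR (24.04 against 28.3) and GFRA3 (3.38 against 3.92) had log2 folds between -0.28 and -0.17, and GFRA2 (19.2 against 16.9) had 0.18. The median of all genes was -0.08. NTRK2 stayed below 1 TPM, at 0.182 against 0.222.

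With siG3BP2, NTRK3 met the rule as lower: 0.0537 TPM against 1.42 in siCtrl, a log2 fold of TPM + 1 of -1.20 at the 1.75th percentile. This was 1 of 6 members, beside a background of 2.89% of 12229 genes lower and 1.23% higher. The siCtrl level of NTRK3 was little above the minimum of 1 TPM, and with a minimum of 5 TPM the gene was not called. The median log2 fold of all genes was -0.12. ALK stood at 9.10 against 13.6 TPM (log2 fold -0.54), and GFRA3 at 6.56 against 3.92 (log2 fold 0.62, 97.0th percentile). RET (79.2 against 88.3), NGFR (24.7 against 28.3) and GFRA2 (18.7 against 16.9) lay between -0.19 and 0.14, and NTRK2 stood at 0.275 against 0.222 TPM.

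Set side by side, the knockdown libraries differed most in GFRA3, RET and NTRK3. GFRA3 was at 6.56 TPM with siG3BP2 and 3.38 with siG3BP1 (log2 fold 0.79, 97.9th percentile), and RET at 79.2 and 55.7 (0.50, 95.1st percentile). NTRK3 was below 1 TPM in both. No member met the rule (0 of 5 above 1 TPM), beside 1.4% of 12179 genes higher and 1.94% lower. No library of either knockdown was repeated, so the size of these differences has no replicate check.

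In the lists, siG3BP1 left 2 of 29 other receptor tyrosine kinases called lower, beside 1.98% of 12280 genes. These were IGF1R at 0.169 TPM against 2.87 in siCtrl and EGFR at 0.736 against 4.58, so both calls rest on siCtrl levels below 5 TPM. With siG3BP2, 5 of 29 were called lower and 1 higher, beside 2.89% of 12229 genes lower and 1.23% higher. EGFR was at 0.495 TPM, IGF1R at 0.190, LMTK2 at 3.52 against 11.2 and FGFR4 at 2.99 against 9.67, while DDR1 was higher at 6.22 against 1.88. GAB2 was the 1 of 27 adaptors called lower with siG3BP2, at 2.7 TPM against 38.7. PIK3R1, the regulatory subunit of PI3-kinase, was the 1 of 15 in the downstream list called lower, at 2.81 against 8.87. NCAM1 was the 1 of 6 other receptors and co-receptors called higher, at 10.9 against 4.61. No ligand met the rule in any of the 3 knockdown comparisons, among the 6 ligands above 1 TPM in each. In Total, which had no knockdown, GAB2 stood at 1.74 TPM, EGFR at 0.345, IGF1R at 0.0956, LMTK2 at 0.888 and PIK3R1 at 3.36. These genes were called lower than siCtrl there too, whereas FGFR4 at 5.24 TPM was not. NCAM1 at 3.35 and DDR1 at 0.653 TPM were not called higher there. The same siCtrl library serves all of these comparisons, and its part in the differences was not tested.

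Total and siCtrl differ in AS, in transfection, in the clearing of the lysate and possibly in RNA selection, which cannot be told apart. RET was at 27.2 TPM in Total against 88.3 in siCtrl (log2 fold -1.66) and NTRK3 at 0.0225 against 1.42 (log2 fold -1.24). These 2 of 6 members were called lower and 0 higher, beside 19.6% of 12173 genes lower and 1.28% higher. The median of all genes was -0.41, and both stayed below a fold of 0.5 when Total was rescaled to a median ratio of 1. NGFR and ALK were at log2 folds of -0.91 and -0.79, and GFRA3 and GFRA2 at -0.31 and -0.29. Of 29 other receptor tyrosine kinases 14 were called lower, and of 27 adaptors 10 were.

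Over the 5 TPM libraries the profile of each member was set beside those of 13672 other genes above 1 TPM in at least 1 library. Likeness was the distance between profiles of log2(TPM + 1) centred on each gene's mean. NUP155 was nearest to ALK (distance 0.093), SLAIN1 to RET (0.16), WDR91 to NGFR (0.083) and MAT2B to GFRA2 (0.041). LRRC32 was nearest to NTRK3 (0.15), EPPK1 to NTRK2 (0.043) and NEXN to GFRA3 (0.21). The next nearest were ZNF778, SPG7, EIF4EBP2, IST1, CHFR, MBIP and FAM204A in the same order. No member was among the 2 nearest genes of another.

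The rRNA-depleted libraries asked how the receptor RNAs differed after AS without pull-down. Their values, reads per kb of transcript scaled to depth (RPKM), were whole multiples of the worth of 1 read where the annotation held the same transcript version, which gave 13291959 reads for untreated and 11281587 for AS-treated cells. NTRK2-202, NTRK2-203, NTRK3-201 and NTRK3-217 have another version here and gave no whole reads, so no read count is given for them. A read that overlaps several transcripts of a gene was counted for each, so transcripts of a gene are not independent. ALK-201, the MANE Select transcript of ALK, stood at 15.7 RPKM untreated and 15.9 with AS (1118 reads with AS), a ratio of 1.01 with a 95% counting interval of 0.935 to 1.10. RET-202, that of RET, stood at 17.8 and 17.0, a ratio of 0.952 (0.878 to 1.03). These intervals cover counting error in 1 library each.

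The 7 ALK transcripts lay between 1.07 and 15.8 RPKM untreated and between 0.475 and 16.1 with AS. The 12 RET transcripts lay between 2.23 and 18.3 untreated and between 1.02 and 19.2 with AS, and 10 of the 12 were lower with AS. The lowest counts came from ALK-204 and RET-206, at 3 and 7 reads with AS. The median AS ratio of all transcripts above 1 RPKM in both libraries was 1.19, so an unchanged RPKM lies below the middle of this table. All 12 RET ratios were below 1.19, from 0.458 for RET-206 to 1.08 for RET-208, and 10 of the 12 intervals ended below it. Of the 6 ALK transcripts with 10 or more untreated reads, 5 had ratios below 1.19, and 3 intervals ended below it. Among all transcripts above 1 RPKM in both libraries, the ratio of RET-202 lay at the 14.9th percentile and that of ALK-201 at the 21.4th. Transcripts of a gene share reads, so these counts are not separate results. The share of all transcripts with such intervals was not computed.

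NGFR was much lower in this table. NGFR-201 stood at 0.508 RPKM untreated and 1.01 with AS (23 and 39 reads), a ratio of 2.0 with an interval of 1.16 to 3.50. That interval excludes 1 and includes 1.19. GFRA3-201 stood at 1.67 and 2.14 RPKM (ratio 1.29, interval 0.836 to 1.99). Untreated, the highest GFRA2 transcript was GFRA2-207 at 0.173 RPKM (2 reads), and with AS it was GFRA2-203 at 0.151 (2 reads). For NTRK3 these were NTRK3-212 at 0.14 RPKM untreated (1 read) and NTRK3-207 at 0.282 with AS (2 reads). Each pair holds different transcripts and so gives no change with AS. The table listed 7 of the 58 annotated NTRK2 transcripts, with at most 6 reads untreated and 0 with AS, where a count of 0 allows up to 3 reads.

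No member transcript met the rule of a fold of RPKM + 1 above 2 or below 0.5 (0 of 22 above 1 RPKM), beside 1.51% of 100705 transcripts higher and 0.47% lower. With a pseudocount of 0.1, ALK-204 and RET-206 were called lower, and the former rests on 3 reads with AS.

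**Figure D3:**
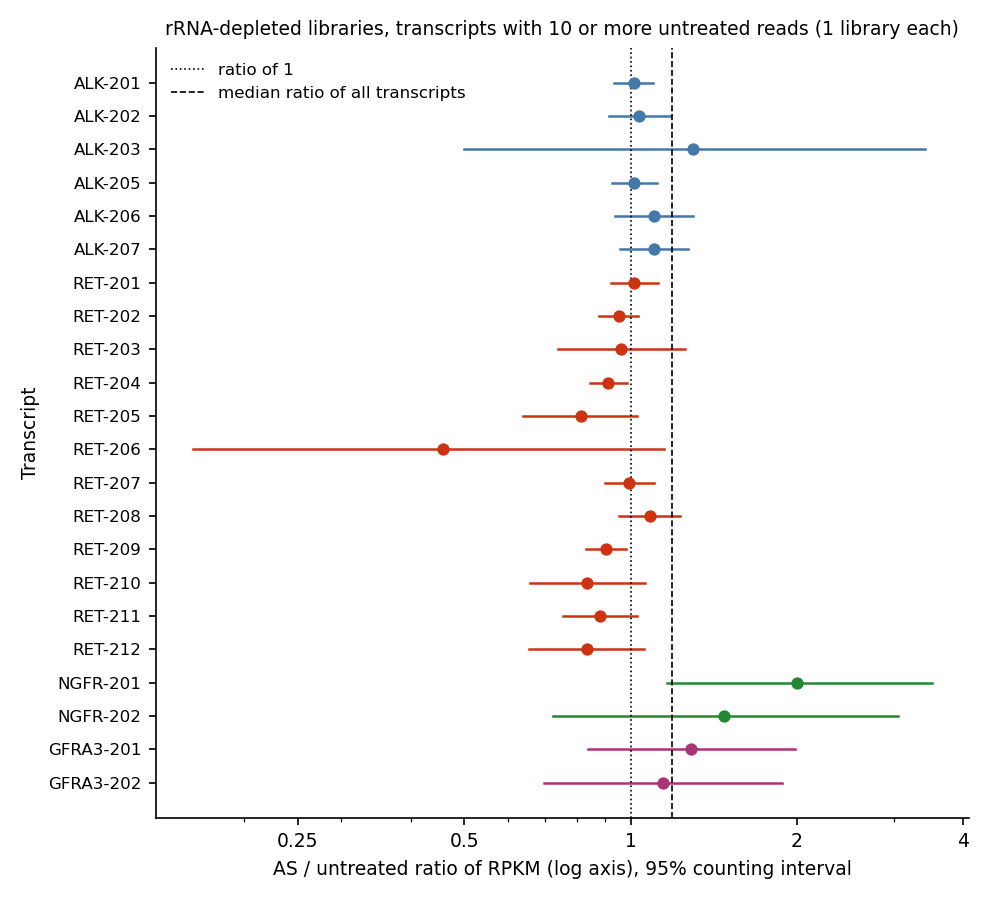
Ratio of AS to untreated RPKM (log axis) for each transcript of the receptor genes with 10 or more untreated reads, with 95% intervals for counting error. The 12 RET ratios lie left of the dashed median of 1.19, and the 2 NGFR ratios lie right of it with wide intervals.

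The TPM and rRNA-depleted tables were normalized separately, so a gene was compared between them by its rank only, using its highest transcript in the latter. RET was at the 93.3rd percentile in siCtrl and the 93.0th in untreated cells, and GFRA3 at the 51.7th and 51.8th. In the AS-treated pair, RET was at the 84.4th percentile in Total and the 91.7th in the rRNA-depleted table. ALK was at the 69.4th percentile in siCtrl and the 91.5th in untreated cells. NGFR and GFRA2 differed the other way: NGFR was at the 80.7th against the 42.6th percentile, and GFRA2 at the 72.9th against the 34.2nd. The AS-treated pair showed the same order for these 2 genes, with NGFR at the 76.2nd percentile in Total against the 44.02nd, and GFRA2 at the 75.3rd against the 30.03rd. Of the 7017 genes above 10 TPM in siCtrl, 299 (4.26%) had no transcript at 1 RPKM in untreated cells, NGFR and GFRA2 among them. Of the Schwann cell and mesenchymal markers, COL3A1 had a like gap, at the 61.4th against the 31.6th percentile, and 9 of 10 sympathoadrenal markers were within 3.81 percentile points. The libraries differ in culture, transfection, RNA selection and sequencing provider, which cannot be told apart.

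eCLIP values were deposited as log10 of a whole number plus 1 for each gene and library. All 7 members were above 0 in all 8 libraries, as were 82.6% of genes. NTRK3 had the highest values of the members, 4.19 and 3.57 with G3BP1 and 4.26 and 3.84 with G3BP2 in untreated cells, and 4.16 and 3.41 with G3BP1 and 4.25 and 3.70 with G3BP2 after AS. ALK followed at 3.86 and 3.35 with G3BP1 and 3.86 and 3.53 with G3BP2 untreated, and 3.85 and 3.16, and 3.89 and 3.42, after AS. NTRK2 lay between 3.07 and 3.86, GFRA2 between 2.53 and 3.37 and RET between 2.05 and 3.06. NGFR lay between 1.61 and 2.44 and GFRA3 between 1.36 and 2.29. In each group the second library was lower for every member, so libraries were scaled to the same total before they were compared.

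Across genes the eCLIP value followed the gene span (Spearman's rho 0.860 over 19910 genes, against 0.578 for the longest transcript), as a description, since genes are not replicates. ALK, NTRK2 and NTRK3 are long, so members were compared per kb of span. NTRK3 had 22.1 to 28.1 per kb over the 8 scaled libraries, at a median percentile of 94.7 among all genes. RET (7.83 to 16.7, median percentile 77.6) and GFRA2 (10.4 to 14.6, 75.9) followed, and NTRK2 had 8.96 to 10.4 (67.2). ALK (6.09 to 7.55, 52.3) and NGFR (6.05 to 9.29, 56.5) were near the middle, and GFRA3 (3.44 to 6.17, 38.0) was below the median in all 8 libraries. The median of all genes was 6.41 per kb and that of 54 other receptor tyrosine kinases 9.72. The ranges of NTRK3 and the other members did not overlap, whereas those of neighbours among RET, GFRA2 and NTRK2 did. The deposited columns are headed peaks, and the study's methods state that called peaks were normalized with size-matched input libraries to remove background. The values are log10 of whole numbers, and the sources used here do not say whether that step was applied to them. Binding by G3BP1 or G3BP2 and background therefore cannot be told apart in these levels. The order differs from that of the mRNA levels: NTRK3 was at 1.42 TPM in siCtrl and RET at 88.3. The order also depends on the length used. Over the longest transcript in place of the span, ALK led at a median percentile of 96.2, followed by NTRK3 at 93.0, NTRK2 at 91.5, GFRA2 at 86.6, RET at 66.002, GFRA3 at 48.9 and NGFR at 44.1.

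**Figure D4:**
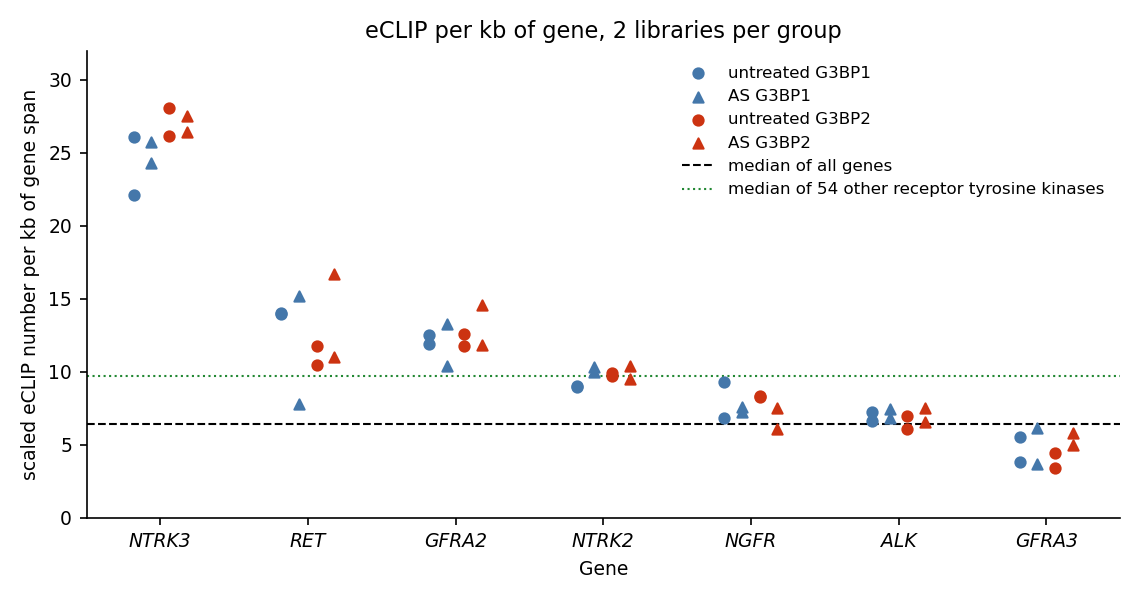
Scaled eCLIP number per kb of gene span for each receptor gene, ordered by its median, with 2 libraries in each of the 4 groups shown as points. NTRK3 lies at 22.1 to 28.1 per kb, and GFRA3 lies below the dashed median of all genes in every library.

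AS against untreated cells was tested for each protein with limma over all 8 libraries and 19259 genes, with changes on the log10 scale of scaled numbers and Benjamini-Hochberg adjustment. With G3BP1, RET stood at 2.87 ± 0.0023 untreated and 2.77 ± 0.20 with AS (SD, n = 2), a change of -0.11 ± 0.10 (SE) with a 95% interval of -0.35 to 0.14 (limma adjusted p = 0.953). The 2 AS libraries of RET lie on either side of the untreated pair. With G3BP2, RET stood at 2.77 ± 0.036 untreated and 2.86 ± 0.13 with AS (SD, n = 2), a change of 0.088 ± 0.10, so the means moved in opposite directions. The difference between these changes was 0.20 ± 0.15 with an interval of -0.15 to 0.54 (limma adjusted p = 1.0).

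The intervals were narrower for the long genes. ALK changed by 0.013 ± 0.036 (SE) with G3BP1 and by 0.033 ± 0.036 with G3BP2, as log10 values. NTRK3 changed by 0.018 ± 0.030 and -0.0021 ± 0.030. For G3BP1 the interval of NTRK3 ran from a fold of 0.883 to 1.23. NTRK2 changed by 0.053 ± 0.028 with G3BP1, and both AS libraries lay above both untreated libraries, with a limma unadjusted p of 0.102 and adjusted p of 0.95. For GFRA3, the least covered member, the change with G3BP2 was 0.14 ± 0.12 with an interval of a fold of 0.699 to 2.72. NGFR with G3BP2 changed by -0.090 ± 0.094, and GFRA2 by -0.017 ± 0.052 with G3BP1 and 0.033 ± 0.052 with G3BP2.

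Between the proteins, G3BP2 and G3BP1 differed by -0.10 to 0.053 in untreated cells and by -0.042 to 0.095 after AS over the 7 members, on the log10 scale. No member passed in any of the 5 tests (smallest unadjusted p 0.102, limma). No gene passed either: the background was 0.0% of 19259 in each test, with limma unadjusted p below 0.05 for 372 genes higher and 404 lower after AS with G3BP1 and 278 and 247 with G3BP2. For G3BP2 against G3BP1 these were 80 and 79 genes untreated and 143 and 94 after AS, and for the interaction 60 and 84. Without the first AS library of G3BP1, 198 genes passed for G3BP1 and 178 for G3BP2 against G3BP1 after AS, and no member was among them. The AS group of G3BP1 then holds 1 library, which is assumed to vary like the other groups. Without the first untreated library of G3BP1, 2 genes passed for AS with G3BP1. With 2 libraries per group, these intervals bound the members' changes and do not show that they were equal.

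**Figure D5:**
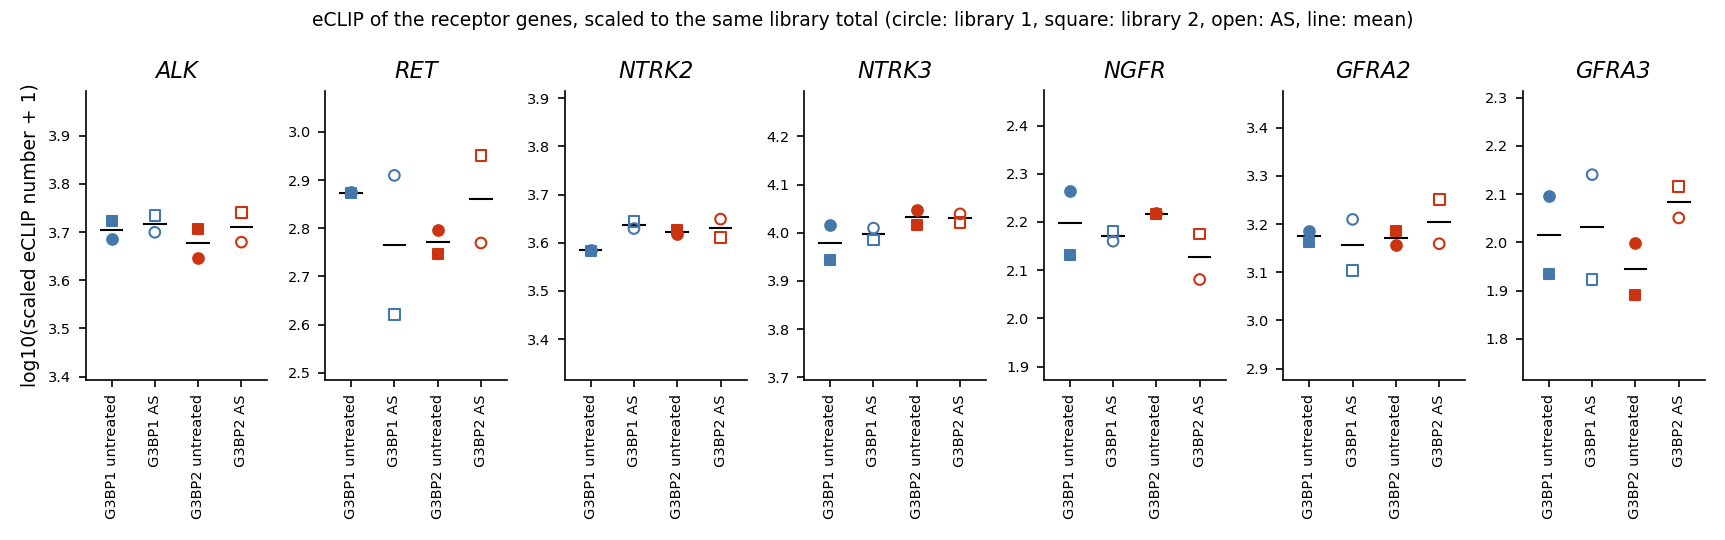
log10 of the scaled eCLIP number plus 1 for each receptor gene, by protein and treatment, with both libraries as points (open after AS) and their mean as a line. Every panel spans 0.6 log10 units. The RET libraries with AS spread most, and the NTRK2 and NTRK3 libraries lie close together.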

How the data were processed

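For the siRNA, Total and SG libraries the authors aligned reads with HISAT2 2.1.0, estimated TPM with StringTie and deposited TPM of protein-coding genes. For rRNA-depleted RNA the authors used fastp, HISAT2 and StringTie, and their deposited values, 1 per transcript, are read as RPKM. The header names them TPM, but the values times transcript length were whole multiples (within 0.05 of a read) for 100% of untreated and 99.9993% of AS values above 0, over transcripts of the same version in the annotation used here. For eCLIP the authors used fastp, STAR and CLIPper, with size-matched input libraries (4, not analysed here). Their deposited columns are headed peaks but hold log10 of a whole number plus 1, and which steps the number includes is not given in the sources used here.

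Columns were assigned by name (0 left unassigned). GENCODE release 44 on GRCh38, another release than the authors', gave names and lengths for 19910 of 19942 rows and 91.1% of transcripts. Single libraries were compared by the fold of value + 1 (above 2 or below 0.5, higher value above 1), with no test. eCLIP genes above 0 in at least 2 libraries were scaled to the mean total and tested with limma 3.58.1 (R 4.3.3, intensity trend, 4 groups, adjusted p threshold 0.05). The procedure was tested on simulated data, in which the eCLIP libraries were drawn independently. In the deposited data, same-numbered libraries of a treatment deviated together, which the simulation does not cover. Libraries were not treated as paired, since nothing in the labels says what a shared replicate number marks. Nothing in the labels says that the 2 libraries of a group came from separate cultures, so p-values measure only the spread between them. Counting intervals are exact binomial. Python 3.11.15, scipy 1.17.1 and pandas 2.3.3 were used. The members and the gene lists were chosen with earlier results of these data known. Named were all 7 members and, per list and comparison, up to 5 called genes with the largest fold, a few of which are not reported here. GFRA1, GDNF, PTN and NRTN levels, the cell type markers named and the knockdown targets were added for context. Alternatives changed the pseudocount, thresholds, minimum, scaling, filter, block and libraries left out.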

Additional observations from a re-analysis of the deposited data

How the results depend on the processing

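The count of 6 members higher in SG was 4 to 6 under every alternative run: GFRA2 and NTRK2 were lost with thresholds of 4 and 0.25 and with the median ratio set to 1, and NTRK2 and NTRK3 with a minimum of 5. With a pseudocount of 0.1, 1 member (NTRK3) was called with siG3BP1 and 2 member transcripts (ALK-204 and RET-206) in the rRNA-depleted libraries, against 0 for each. With thresholds of 4 and 0.25, 0 members were called with siG3BP2 (1 otherwise) and 0 in Total against siCtrl (2 otherwise). With a minimum of 5, these counts were 0 and 1 (RET). Why these counts moved was not tested. For eCLIP, 0 genes passed in each of the 5 tests. Without the filter on low numbers, 2 genes passed for AS with G3BP1, 5 for AS with G3BP2 and 1 each for G3BP2 against G3BP1 untreated and with AS. Deviations of same-numbered libraries correlated at 0.42 between the proteins untreated and 0.32 with AS (0.63 and 0.49 over the 12216 genes with a mean log10 value above 2), and at 0.060 to 0.15 between other groups. The replicate block on scaled numbers, 1 term shared by all groups, gave 0 in all 5 tests. Such a term cannot take up deviations that are shared within a treatment only. On unscaled values, a choice made after seeing the data, the replicate block gave 2, 2 and 1 genes for AS with G3BP1, AS with G3BP2 and the proteins after AS. Leaving out 1 library at a time, so that its group holds 1 library assumed to vary like the others, gave 0 to 198 genes for AS with G3BP1, 0 to 178 for the proteins after AS, 0 to 24 for the interaction and 0 for the other tests. The highest counts came without the first AS library of G3BP1, and 2 genes passed for AS with G3BP1 without its first untreated library. The cause was not tested. Over 35 member changes and 553 alternative values, 0 passed (smallest limma adjusted p 0.321), and 62 had the other sign. Of the 7 members, 6 were above the median eCLIP per kb of span and 5 per kb of the longest transcript. TPM give no depth, and 1 library per condition allows no error for any TPM or RPKM difference.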
